A study of Homo sapiens with 8 samples.

Results

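The transcripts described here encode the enzymes that make, salvage and degrade the building blocks of DNA, namely RRM1, RRM2 and RRM2B, which form ribonucleotide reductase, and TYMS, TK1, DUT, SAMHD1 and DCK. These 8 genes were chosen by name, with their response to temozolomide (TMZ) already known, and they make up 8 of the 26364 genes in the count table. All 8 had enough reads to be tested, among 14201 tested genes in all. RNA came from LN229, a human glioblastoma cell line, carrying Survivin (the product of BIRC5) fused to eGFP and kept under G418. In clone Surv-GFP (D6) the nuclear export signal (NES) of Survivin is intact. In clone SurvNESmut-GFP (L2) the NES carries L96A and L98A. Both clones were grown without TMZ or with 50 µM of it, an alkylating drug used against glioblastoma, for 48 h, and each of the 4 groups holds 2 libraries, lettered a and b. Each construct is represented by 1 G418-resistant clone, which still has its endogenous BIRC5, so an effect of the NES mutation and a property of the clone cannot be told apart, and no library of untransfected LN229 was analysed here. The study describes biological replicates that were also run as technical duplicates, and which of these the letters mark is not given, so the errors and p-values measure the spread between lettered libraries, which may be technical.

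Ribonucleotide reductase converts ribonucleotides to deoxyribonucleotides and sets the pace of DNA precursor supply. It joins the large subunit RRM1 with 1 of the small subunits, either RRM2, which is made in S phase and degraded in mitosis, or RRM2B (p53R2), which is induced by p53 after DNA damage and also serves cells that are not replicating. Thymidylate synthase (TYMS) and thymidine kinase 1 (TK1) supply dTMP by the de novo and the salvage route, deoxycytidine kinase (DCK) salvages deoxycytidine and purine deoxynucleosides, DUT removes dUTP so that uracil is kept out of DNA, and SAMHD1 degrades dNTPs. E2F factors at the G1/S transition and NF-Y, which binds CCAAT, are known to act on several of these promoters.

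The promoters are shown because RRM2B is a known p53 target while several of the other genes are tied to S phase. RefSeq promoter windows of 300 bases (GRCh38.p14), reaching from 250 bases upstream to 50 bases downstream of a start, were found for 7 of the 8 genes, 12 windows in all, and RRM2B is named only. The words searched on both strands were E2F words (TTTGGCGC, TTTCCCGC, TTTGCCGC, TTTCGCGC), CCAAT, and the cell cycle homology region words TTTGAA and TTCGAA, and none of these words overlaps another in the stretches shown. CCAAT was found in windows of RRM1, RRM2, TK1 and SAMHD1, and stands in 34.6% of all 35116 windows. An E2F word was found in windows of TYMS, DUT and DCK, and stands in 3.31% of all windows. A cell cycle homology region word was found for RRM1 and DUT, and in 16.4% of all windows. RRM2 and TK1 have 2 windows each and DUT has 4, which gives these genes more room for a match. The stretches below hold the words, in capitals (ATTGG is CCAAT on the other strand, GCGGGAAA is TTTCCCGC on the other strand), and run 5′ to 3′ on the strand of the gene. The first RRM2 window holds CCAAT 3 times, and a further CCAAT lies in the second. Not every word found is printed. Left out are the CCAAT of the second RRM2 window, the E2F word of DCK, and the cell cycle homology region words of RRM1 and DUT.
RRM1, chr11:4094649-4094668, plus strand: gtccatatCCAATggggccc
RRM2, chr2:10122613-10122632, plus strand: cagCCAATgggaagggtcgg
RRM2, chr2:10122643-10122662, plus strand: cagCCAATgggaagggccgg
RRM2, chr2:10122670-10122689, plus strand: aagCCAATgggaagggccgg
TK1, chr17:78187116-78187135, minus strand: gcgctgATTGGccccatggc
TK1, chr17:78187085-78187104, minus strand: ctcgtgATTGGccagcacgc
SAMHD1, chr20:36951736-36951765, minus strand: gcaggaggCCAATaggctgCCAATactcct
TYMS, chr18:657606-657625, plus strand: ggacggccGCGGGAAAaggc
DUT, chr15:48332151-48332180, plus strand: gctgGCGGGAAAtttcggtTTTGGCGCgct
All stretches lie upstream of a RefSeq start. Apart from the RRM1 stretch, each also lies within an exon of a longer transcript in GENCODE 29. These letters describe the reference sequence, and binding of a factor was not measured. In GENCODE 29 (GRCh38), the genes themselves lie at chr11:4094707-4138876 (RRM1), chr2:10120698-10131419 (RRM2), chr18:657604-673578 (TYMS) and chr15:48331011-48343373 (DUT), and at chr4:70992538-71030914 (DCK), all on the plus strand, and at chr17:78174075-78187233 (TK1) and chr20:36889773-36951901 (SAMHD1) on the minus strand.

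Library depth ranged from 15826923 to 18861603 reads on genes. The 2 letters of a group differed by more than counting noise in every group, most between the TMZ-exposed SurvNESmut-GFP libraries, with a chi-square per degree of freedom of 5.75 against 2.2 to 2.66 elsewhere. BIRC5 reads, which come from the endogenous gene and the transgene alike, stood at 1152 and 1113 counts scaled to a common library size (CPM) in untreated Surv-GFP, 1938 and 2029 with TMZ, 407 and 414 in untreated SurvNESmut-GFP, and 262 and 253 with TMZ. Of 12 glial and glioma markers, 9 reached 1 CPM in some library, with VIM at 2350 to 3780 CPM and SOX9, GFAP and CHI3L1 at or near 0, and the list summed to 5360 to 7770 CPM. Of 14 markers of other cell types, 2 (CD68 and MBP) reached 1 CPM and AIF1 had 0 counts in all libraries. Of these 14, MBP averaged 0 CPM in both Surv-GFP groups, and 6.66 CPM without and 6.43 CPM with TMZ in SurvNESmut-GFP. That list summed to 13.1 to 13.8 CPM in untreated Surv-GFP, 18.3 to 19.7 with TMZ, 22.9 to 23.6 in untreated SurvNESmut-GFP and 26.4 to 29.4 with TMZ, and its part in the results was not tested.

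With TMZ, RRM2B transcripts were higher in both clones, the other genes were lower or nearly level in Surv-GFP, and RRM1 and RRM2 were slightly higher in SurvNESmut-GFP. Since the genes were chosen with their levels in these 4 groups known, all their differences between groups are given as a description, as fitted log2 values with standard errors (SE) from edgeR and without p-values. Counts of the 8 genes past the threshold that edgeR applied to all tested genes (adjusted p below 0.05) stand beside the share of all tested genes past it, and nothing is read from them. CPM values use library sizes scaled by TMM. In Surv-GFP, the count past the threshold was 1 of the 8 genes higher (12.5%, against 30.1% of all tested genes) and 6 lower (75%, against 28.9%) with TMZ. In SurvNESmut-GFP it was 3 higher (37.5%, against 18.6%) and 3 lower (37.5%, against 19.1%). TMZ libraries stood apart from the untreated ones of Surv-GFP above them for 1 and below them for 6 of the 8 genes, as for 39.9% and 39.6% of all tested genes, and in SurvNESmut-GFP above them for 4 and below them for 3, as for 34.5% and 33.5%. Over the 8 genes, the median effect on the log2 scale was −0.37 for Surv-GFP. It was 0.10 for SurvNESmut-GFP, and over all tested genes it was 0.00 in either clone. As RNA was taken from whole cultures, fewer cells in a phase and less RNA per cell cannot be told apart.

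**Figure D1:**
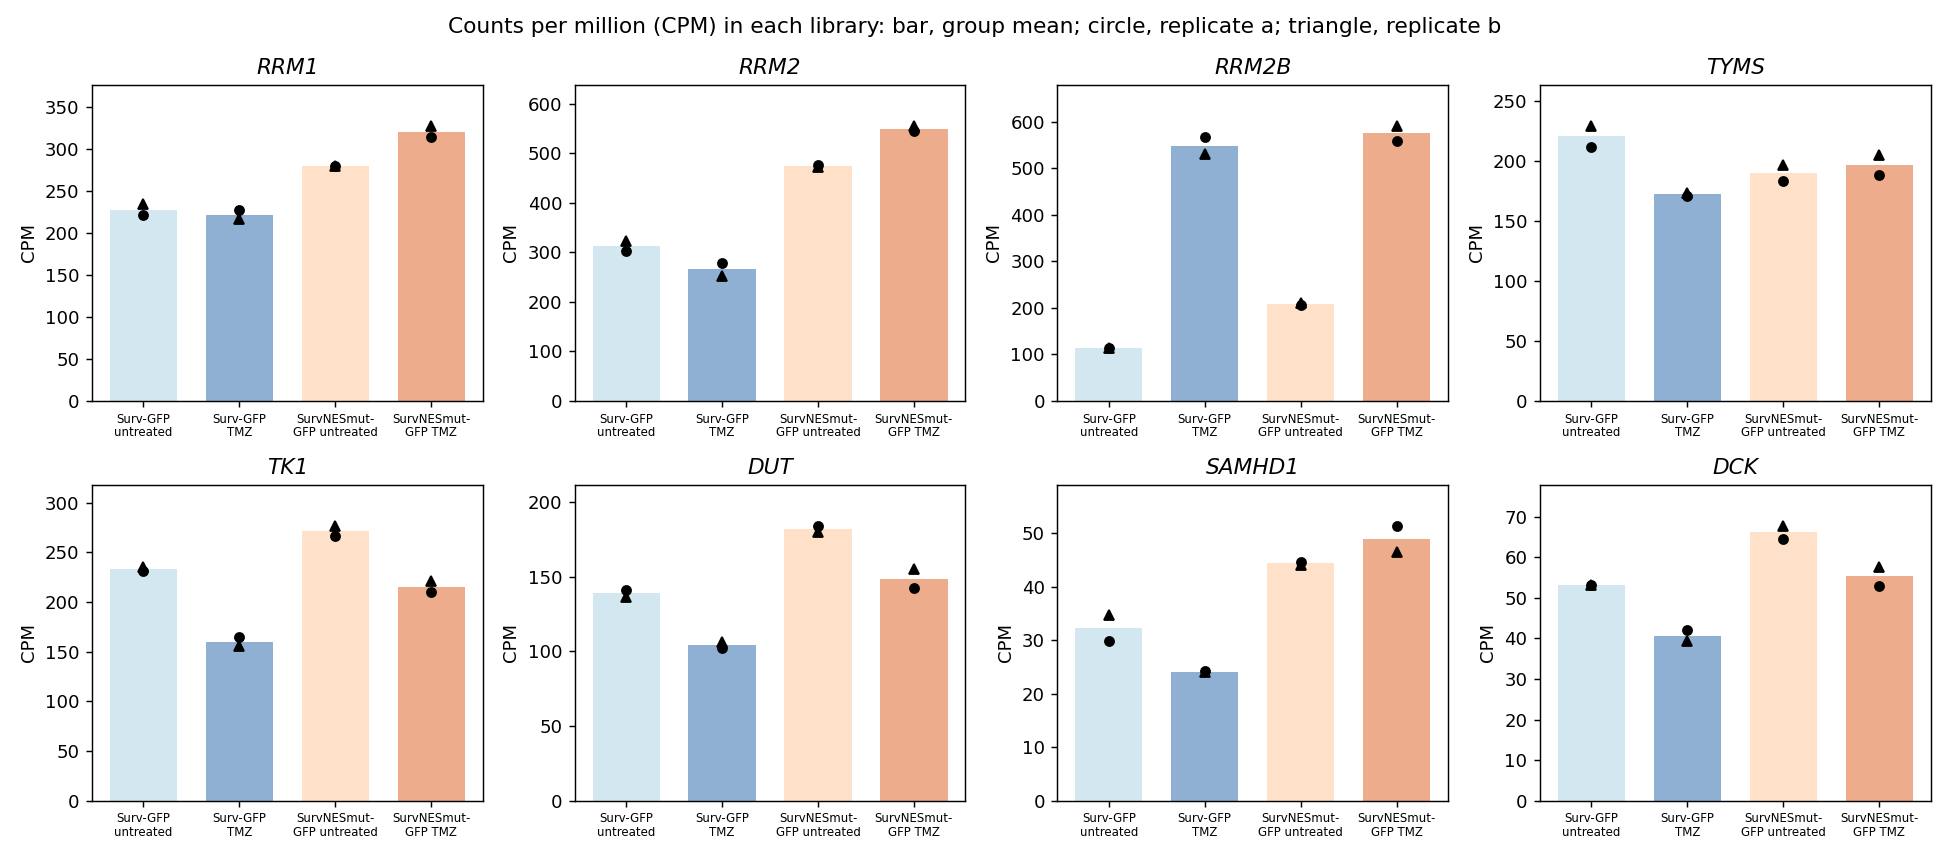
Level of each of the 8 genes in CPM (vertical axes from 0) in the 4 groups, with a bar for the group mean of 2 libraries and a symbol for each library. RRM2B stands between 531 and 591 CPM in all 4 TMZ libraries and between 113 and 210 CPM in the untreated ones, and RRM1 and RRM2 are higher in every SurvNESmut-GFP library than in every Surv-GFP library.

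RRM2B, the p53-inducible small subunit, was the member with the greatest change. It stood at 113 and 114 CPM in untreated Surv-GFP and at 567 and 531 CPM with TMZ, a log2 fold change of 2.27 ± 0.0529 (SE), or 4.83-fold. In SurvNESmut-GFP it stood at 205 and 210 CPM untreated and at 559 and 591 CPM with TMZ, a log2 fold change of 1.47 ± 0.0509, or 2.77-fold. Every TMZ library was thus above every untreated library, and the TMZ libraries of both clones overlapped. Only 209 tested genes in Surv-GFP and 206 in SurvNESmut-GFP had a larger log2 fold change.

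RRM2, the S-phase small subunit, stood at 304 and 322 CPM in untreated Surv-GFP and at 279 and 253 CPM with TMZ, a log2 fold change of −0.23 ± 0.0537. In SurvNESmut-GFP it stood at 477 and 471 CPM untreated and at 545 and 555 CPM with TMZ, a log2 fold change of 0.21 ± 0.0527. The 4 groups did not overlap, with TMZ-exposed SurvNESmut-GFP highest and TMZ-exposed Surv-GFP lowest. RRM1, the large subunit that both small subunits need, stood at 221 and 234 CPM in untreated Surv-GFP and at 227 and 216 CPM with TMZ, which overlap, with a log2 fold change of −0.04 ± 0.0502. In SurvNESmut-GFP, RRM1 stood at 279 CPM in both untreated libraries and at 314 and 327 CPM with TMZ, a log2 fold change of 0.20 ± 0.0496.

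The balance of the small subunits therefore differed between the groups. Per kb of exon, the ratio of RRM2B to RRM2 reads, which does not depend on how libraries are scaled to each other, was 0.280 and 0.265 in untreated Surv-GFP and 1.52 and 1.58 with TMZ. In SurvNESmut-GFP it was 0.322 and 0.334 untreated and 0.770 and 0.798 with TMZ. On the log2 scale the ratio was higher with TMZ by 2.51 in Surv-GFP (5.68-fold) and by 1.26 in SurvNESmut-GFP (2.39-fold), with a spread between letters of at most 0.056 (SD, n = 2). Reads per kb were thus higher for RRM2B than for RRM2 only in the TMZ libraries of Surv-GFP. The ratio of RRM2 to RRM1 per kb changed far less, from 1.20 in both untreated Surv-GFP libraries to 1.07 and 1.02 with TMZ, and from 1.49 and 1.47 to 1.51 and 1.48 in SurvNESmut-GFP. Exon lengths are those of all GENCODE 29 basic exons of a gene (3.86 kb for RRM2, 5.15 kb for RRM2B, 3.36 kb for RRM1). Of the RRM2 exon bases, 27.9% are shared with a readthrough transcript on the same strand. The level of these ratios thus depends on the annotation. Exon length cancels in their change upon TMZ, but the assignment of reads to a gene does not, and no other annotation was tried.

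**Figure D2:**
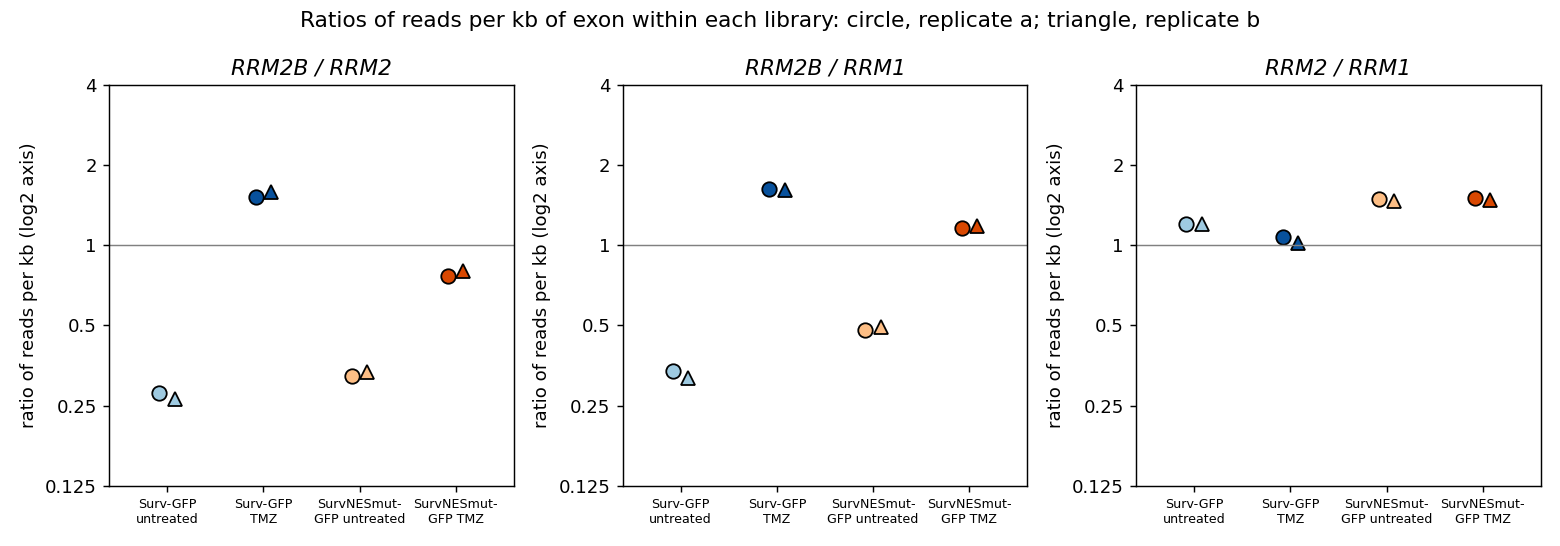
Ratio of reads per kb of exon between the ribonucleotide reductase subunits in each of the 8 libraries, on a log2 axis with a line at a ratio of 1. RRM2B to RRM2 lies at 1.52 and 1.58 in TMZ-exposed Surv-GFP and below 1 in the other 6 libraries, whereas RRM2 to RRM1 stays between 1.02 and 1.51.

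Both enzymes of thymidylate supply were lower with TMZ in Surv-GFP. TYMS stood at 212 and 229 CPM untreated and at 171 and 174 CPM with TMZ in Surv-GFP, a log2 fold change of −0.36 ± 0.0570. In SurvNESmut-GFP it stood at 184 and 197 CPM untreated and at 189 and 205 CPM with TMZ, which overlap (0.05 ± 0.0572). TK1, the salvage kinase, stood at 231 and 235 CPM untreated and at 165 and 156 CPM with TMZ in Surv-GFP, which is a log2 fold change of −0.54 ± 0.0512 and the lowest of the 8 genes. For SurvNESmut-GFP the TK1 values were 266 and 277 CPM untreated and 210 and 221 CPM with TMZ (−0.33 ± 0.0506). Each TMZ library of TK1 was below each untreated library of the same clone.

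DUT and DCK moved like TK1, with lower values in the TMZ libraries of both clones and no overlap within a clone. DUT, the dUTPase, stood at 141 and 136 CPM untreated and at 102 and 106 CPM with TMZ in Surv-GFP (−0.41 ± 0.0540), and at 184 and 180 CPM against 142 and 155 CPM in SurvNESmut-GFP (−0.29 ± 0.0525). DCK stood at 53.2 CPM in both untreated Surv-GFP libraries and at 42.1 and 39.3 CPM with TMZ (−0.39 ± 0.0644). In SurvNESmut-GFP, DCK stood at 64.6 and 67.7 CPM untreated and at 53 and 57.6 CPM with TMZ (−0.26 ± 0.0616). SAMHD1, the dNTP-degrading enzyme and the least abundant of the 8 genes per kb, stood at 29.9 and 34.7 CPM untreated and at 24.2 and 24.1 CPM with TMZ in Surv-GFP (−0.42 ± 0.0835). SAMHD1 stood at 44.6 and 44.1 CPM untreated and at 51.4 and 46.5 CPM with TMZ in SurvNESmut-GFP (0.14 ± 0.0743). This last value was not past the threshold, and lay at 0.07 without SurvNESmut-GFP TMZ a and at 0.22 without SurvNESmut-GFP TMZ b.

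Reads of some members share exon sequence with neighbours, and the sources used here do not say whether the counting used strand. In GENCODE 29, 58.2% of the TYMS exon bases overlap ENOSF1 on the opposite strand and 6.38% overlap TYMSOS, and 18.8% of the SAMHD1 exon bases overlap TLDC2. ENOSF1 stood between 13.8 and 23.2 CPM, TYMSOS between 2.10 and 4.91 CPM, and TLDC2 had at most 3 counts in any library. DUT shares 17.2% and RRM1 1.88% of exon bases with antisense transcripts that have no row in the count table. The values of these genes, TYMS above all, are uncertain to that extent.

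How far the TMZ effect depended on the clone is given as the difference of the log2 fold changes (SurvNESmut-GFP minus Surv-GFP), which is built from the same libraries as the TMZ effects. For RRM2B it was −0.80 ± 0.0718, the lowest of the 8 genes. It was 0.56 ± 0.112 for SAMHD1, 0.45 ± 0.0752 for RRM2 and 0.40 ± 0.0807 for TYMS. Smaller differences were seen for RRM1 (0.24 ± 0.0706), TK1 (0.21 ± 0.0719), DCK (0.13 ± 0.0892) and DUT (0.12 ± 0.0753), so that the 7 genes other than RRM2B all had the higher value in SurvNESmut-GFP. Past the threshold were 5 of the 8 genes as higher (62.5%, against 16.6% of all tested genes) and 1 as lower (12.5%, against 20.2%), and DCK and DUT were not past it. RRM1 was no longer past it without Surv-GFP untreated b (0.19) or SurvNESmut-GFP untreated b (0.23). TK1 was no longer past it without any 1 of 6 libraries, namely Surv-GFP untreated a (0.22) or b (0.19), Surv-GFP TMZ b (0.20), SurvNESmut-GFP untreated a (0.18) or b (0.23) and SurvNESmut-GFP TMZ b (0.17).

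**Figure D3:**
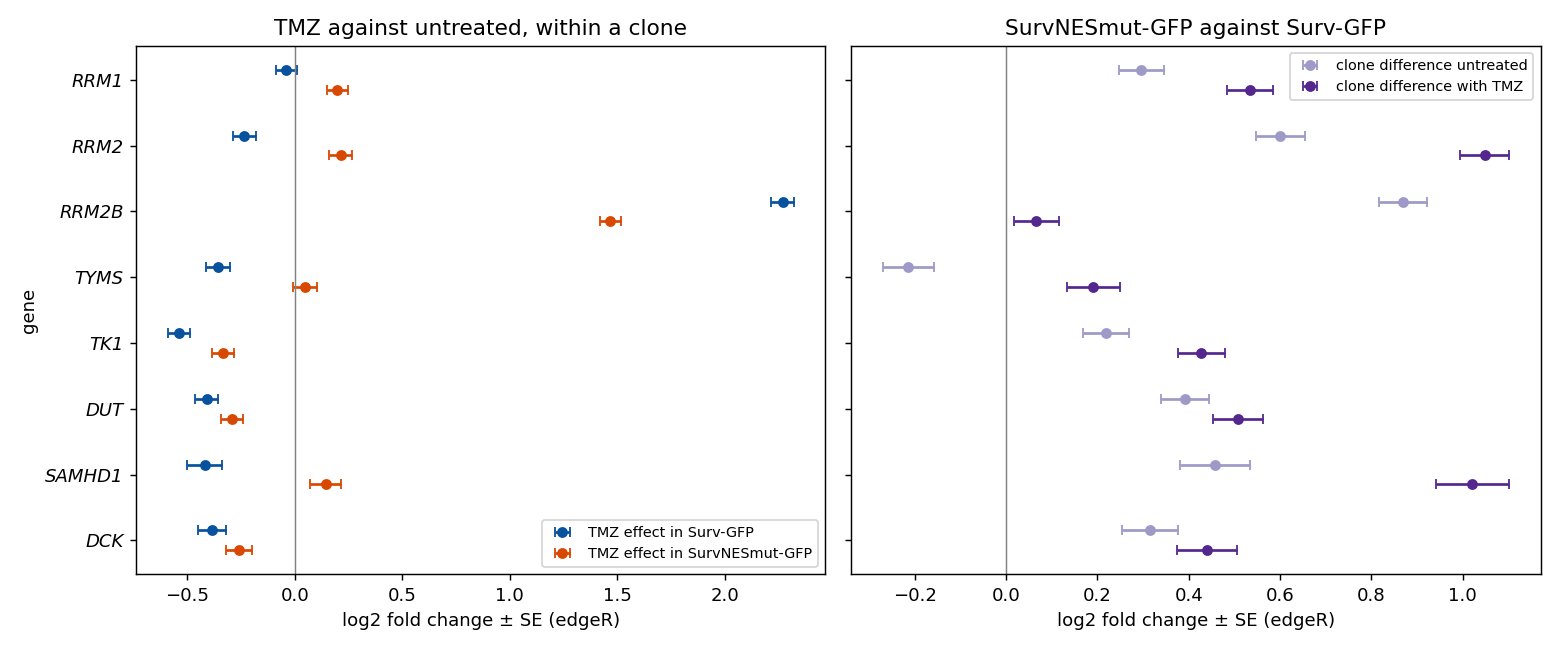
Log2 fold changes of the 8 genes with SE as error bars, on the left for TMZ against untreated in each clone and on the right for SurvNESmut-GFP against Surv-GFP without and with TMZ. RRM2B lies at 2.27 and 1.47 on the left, and at 0.87 without and 0.07 with TMZ on the right, while the other 7 genes have higher values for SurvNESmut-GFP than for Surv-GFP on the left.

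The clones already differed before exposure. Without TMZ, 7 of the 8 genes were past the threshold as higher in SurvNESmut-GFP (87.5%, against 34.7% of all tested genes) and 1 as lower (12.5%, against 29.4%). The libraries of both clones stood apart for all 8, as they did with a higher SurvNESmut-GFP level for 44.3% and a lower one for 38.8% of all tested genes. RRM2B was higher by 0.87 ± 0.0526 on the log2 scale, or 1.83-fold, and RRM2 by 0.60 ± 0.0532, or 1.52-fold. SAMHD1 (0.46 ± 0.0771), DUT (0.39 ± 0.0524), DCK (0.31 ± 0.0611), RRM1 (0.30 ± 0.0499) and TK1 (0.22 ± 0.0502) followed. TYMS was lower by a log2 difference of −0.21 ± 0.0567, and was no longer past the threshold without Surv-GFP untreated b (−0.15) or SurvNESmut-GFP untreated a (−0.16).

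With TMZ, 7 of the 8 genes were past the threshold as higher in SurvNESmut-GFP (87.5%, against 34.5% of all tested genes) and 0 as lower by edgeR and DESeq2 alike (the log2 difference was above 0 for all 8), against 34.7% of all tested genes. The libraries of both clones stood apart for the same 7 genes, as for 41.7% of all tested genes in this direction and 41.7% in the other. RRM2 was 2.07-fold higher (log2 difference 1.05 ± 0.0537) and SAMHD1 2.03-fold (1.02 ± 0.0804). RRM1 (0.53 ± 0.05), DUT (0.51 ± 0.0541), DCK (0.44 ± 0.0649) and TK1 (0.43 ± 0.0515) were higher by less. TYMS was higher by 0.19 ± 0.0574, and was no longer past the threshold without Surv-GFP TMZ a (0.14) or SurvNESmut-GFP TMZ b (0.10). RRM2B, which differed most before exposure, was the exception, with a log2 difference of 0.07 ± 0.0491 and overlapping libraries. These comparisons share libraries with the TMZ effects.

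Per kb of exon, the order of the 8 genes differed with TMZ, for RRM2B and for others. TK1 was above TYMS in Surv-GFP and above RRM2 in SurvNESmut-GFP only without TMZ. In untreated Surv-GFP, TK1 (135 CPM per kb) and TYMS (133) were highest, RRM2 (81.1), RRM1 (67.7) and DUT (44.8) followed, and RRM2B (22.1), DCK (18.9) and SAMHD1 (5.25) were lowest. With TMZ, RRM2B (107 CPM per kb) reached the level of TYMS (104) in Surv-GFP and lay above TK1 (92.8). In SurvNESmut-GFP, RRM2B went from 40.4 to 112 CPM per kb, below RRM2 (142), TK1 (124.8) and TYMS (118), while TK1 (157) and RRM2 (123) were highest without TMZ.

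Other p53 targets were followed as a list, which was written with the behaviour of some of its genes in these libraries known. In this and the following lists, genes that rose or fell are those past the threshold. Of all tested genes, 30.1% rose and 28.9% fell in Surv-GFP, and 18.6% rose and 19.1% fell in SurvNESmut-GFP. The TMZ effect was past the threshold as higher in SurvNESmut-GFP for 16.6% of all tested genes and as lower for 20.2%. Of 28 tested targets other than RRM2B, 23 rose and 3 fell upon TMZ in Surv-GFP (median log2 fold change 1.49, all tested genes 0.00), and 23 rose and 1 fell in SurvNESmut-GFP (median 0.84). CDKN1A, which encodes the CDK inhibitor p21, rose by 3.52 ± 0.0727 in Surv-GFP (edgeR adjusted p = 1e-15) and by 1.96 ± 0.0688 in SurvNESmut-GFP (edgeR adjusted p = 4.2e-12). MDM2, which encodes the ubiquitin ligase of p53, rose by 1.88 ± 0.0684 (edgeR adjusted p = 1.1e-12) and by 0.92 ± 0.0662 (edgeR adjusted p = 2e-08). The rise was smaller in SurvNESmut-GFP for CDKN1A (difference −1.56 ± 0.0962, edgeR adjusted p = 5.1e-09) and MDM2 (−0.96 ± 0.0941, edgeR adjusted p = 9e-07), the direction also seen for RRM2B, and 18 of the 28 targets had a lower and 4 a higher TMZ effect there. By log2 fold change, RRM2B was 8th of 29 targets in Surv-GFP and 7th of 29 in SurvNESmut-GFP. POLH, which encodes the translesion polymerase eta, fell in Surv-GFP (−0.64 ± 0.0681, edgeR adjusted p = 5.2e-07), and CCNG1 fell in both clones (−0.33 in each), although its value in SurvNESmut-GFP was −0.18 without SurvNESmut-GFP TMZ a and −0.50 without SurvNESmut-GFP TMZ b.

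The S-phase list, apart from the 4 members it holds, had 35 tested genes. In Surv-GFP, 27 of them fell and 2 rose (median −0.42), in SurvNESmut-GFP 11 fell and 5 rose (median −0.01), and the TMZ effect was higher in SurvNESmut-GFP for 26 and lower for 2 (median difference 0.39). PCNA, the sliding clamp of DNA polymerases, fell by 0.92 ± 0.0574 in Surv-GFP (log2 fold change −0.92, edgeR adjusted p = 8.2e-10) and by 0.34 ± 0.0558 in SurvNESmut-GFP (−0.34, edgeR adjusted p = 0.00013). MCM2 and MCM6, subunits of the replicative helicase, fell with log2 fold changes of −0.96 and −1.10 in Surv-GFP, against −0.33 and −0.83 in SurvNESmut-GFP. CDC6, which loads that helicase, rose in Surv-GFP (0.71 ± 0.0635, edgeR adjusted p = 7.5e-08). The 7 genes other than RRM2B had a median of −0.39 in Surv-GFP (from −0.54 to −0.04) and of 0.05 in SurvNESmut-GFP (from −0.33 to 0.21). The median of all tested genes was 0.00 in either clone. As the genes and the list were chosen with results of these data known, no likeness is read from these medians. All 20 genes of the G2 and mitosis list fell in both clones, with medians of −1.50 and −0.82, and KIF20A, a mitotic kinesin, fell furthest (−3.31 and −2.12).

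**Figure D4:**
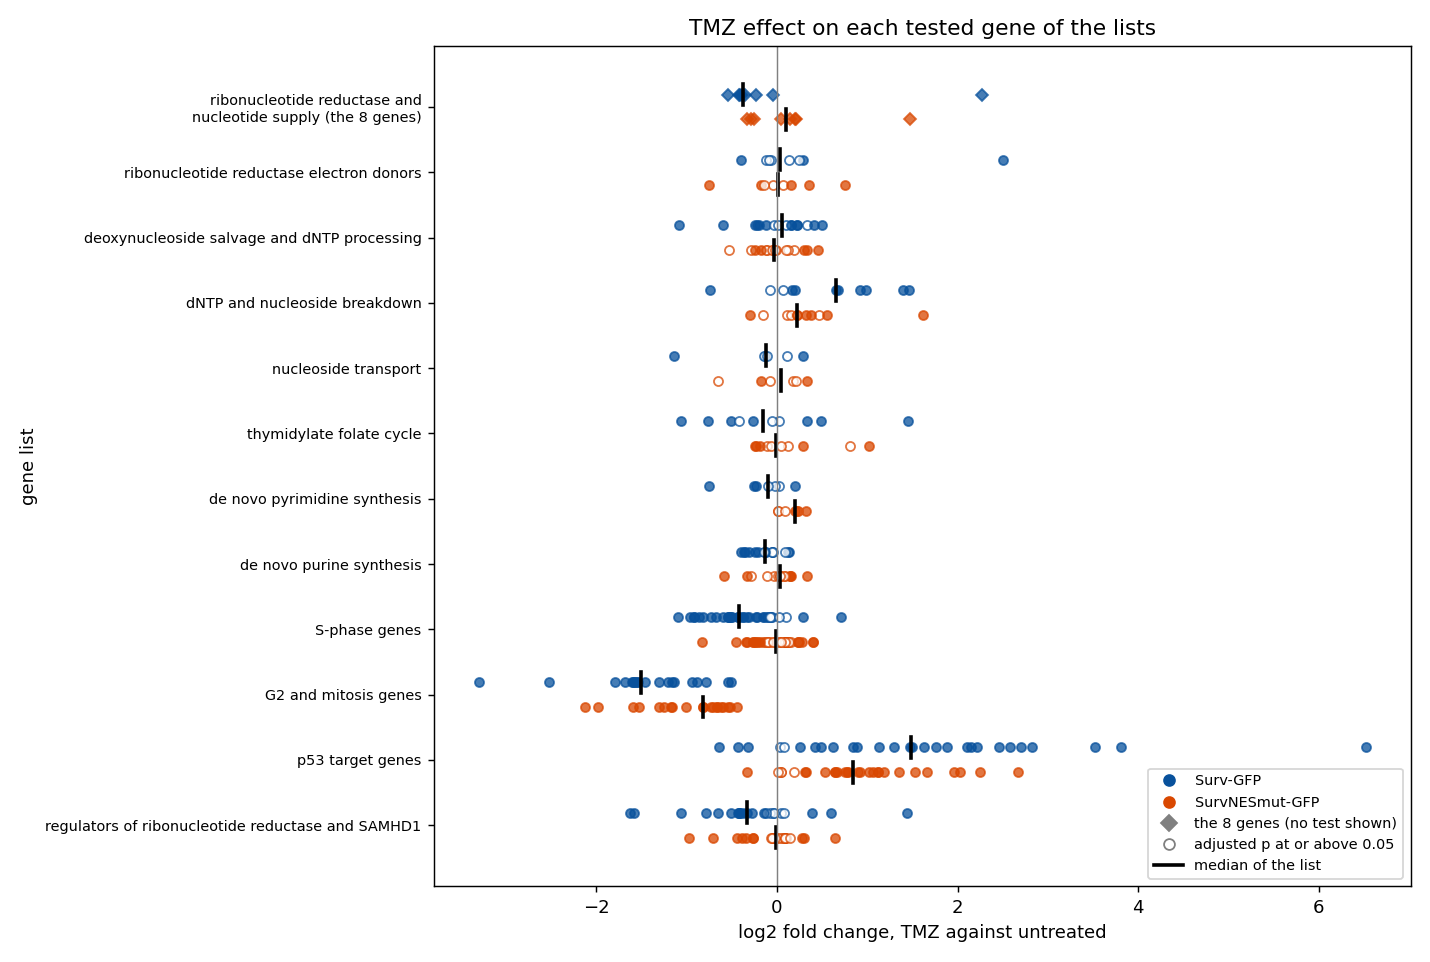
TMZ effect (log2 fold change, horizontal axis) on every tested gene of each list, with the 8 genes as diamonds and without them in the other lists, for Surv-GFP in blue and SurvNESmut-GFP in orange. Open circles did not pass the test and black bars mark the list medians, which lie at −1.50 and −0.82 for G2 and mitosis genes and at 1.49 and 0.84 for p53 target genes.

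The regulators of ribonucleotide reductase and SAMHD1 were followed as a list of 23 genes, of which 14 fell and 3 rose in Surv-GFP (median −0.33) and 7 fell and 3 rose in SurvNESmut-GFP (median −0.01). CCNF, whose product cyclin F marks RRM2 for degradation, fell by 1.63 ± 0.0680 in Surv-GFP (log2 fold change −1.63, edgeR adjusted p = 5.7e-12) and by 0.98 ± 0.0597 in SurvNESmut-GFP (−0.98, edgeR adjusted p = 3.1e-09). CCNA2, whose product acts with CDKs that phosphorylate SAMHD1, fell in both clones (−1.59 and −0.71). E2F7, a repressor of E2F targets, rose by 1.44 ± 0.0649 in Surv-GFP (edgeR adjusted p = 1.4e-11) and by 0.64 ± 0.0595 in SurvNESmut-GFP (edgeR adjusted p = 3.8e-07). E2F1, an activator, fell in Surv-GFP (−0.38 ± 0.0601, edgeR adjusted p = 4.2e-05) and did not pass in SurvNESmut-GFP (−0.04 ± 0.0546, edgeR adjusted p = 0.57), and its TMZ effect differed between the clones (0.34 ± 0.0812, edgeR adjusted p = 0.0038). E2F8, a second repressor, fell in both (−0.42 and −0.27), but the call in SurvNESmut-GFP was lost without SurvNESmut-GFP untreated a (−0.26) or b (−0.28) or SurvNESmut-GFP TMZ b (−0.24), with library size alone (−0.23) and with DESeq2 (−0.28). SKP2, a ubiquitin ligase subunit, fell in Surv-GFP (−1.06 ± 0.0741, edgeR adjusted p = 3.4e-09).

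Electron donors regenerate ribonucleotide reductase after each cycle. The list followed for them is wider and holds the mitochondrial TXN2, TXNRD2 and GLRX5. Of 8 tested genes, 2 rose and 1 fell in Surv-GFP, and 3 rose and 2 fell in SurvNESmut-GFP. TXNRD2 rose in both clones (0.29 and 0.35), GLRX5 fell in Surv-GFP (−0.40) and TXN2 fell in SurvNESmut-GFP (−0.18). The TXNRD2 call in Surv-GFP was lost without any 1 library of that clone. Those of TXN2 and GSR in SurvNESmut-GFP were lost with DESeq2 and in other repeats. GLRX2, a glutaredoxin of mitochondria and nucleus, rose by 2.51 ± 0.0763 in Surv-GFP (edgeR adjusted p = 1.2e-13) and by 0.75 ± 0.0823 in SurvNESmut-GFP (edgeR adjusted p = 2.5e-06), and these effects differed (−1.76 ± 0.115, edgeR adjusted p = 9.1e-09). The cytosolic glutaredoxin GLRX fell in SurvNESmut-GFP (−0.75 ± 0.144, edgeR adjusted p = 6e-04). Neither clone had a TMZ effect past the threshold for TXN, with −0.06 ± 0.0596 for Surv-GFP and −0.04 ± 0.0573 for SurvNESmut-GFP. The same held for TXNRD1, where these values were −0.09 ± 0.0672 and 0.06 ± 0.0652. Electron supply to the enzyme was not measured.

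Of 11 tested genes that break down nucleotides and nucleosides, 8 rose and 1 fell in Surv-GFP (median 0.65), and 5 rose and 1 fell in SurvNESmut-GFP (median 0.22). NT5E (CD73), which makes adenosine from AMP at the cell surface, rose in Surv-GFP (1.39 ± 0.0558, edgeR adjusted p = 3.2e-12) and fell in SurvNESmut-GFP (−0.30 ± 0.0557, edgeR adjusted p = 0.00052), with a difference of −1.69 ± 0.0787 (edgeR adjusted p = 2.2e-10). UPP1, uridine phosphorylase, rose in both clones (0.99 and 0.32). Of 16 tested salvage and dNTP processing genes, 6 rose and 6 fell in Surv-GFP, and 3 rose and 2 fell in SurvNESmut-GFP. The shares of all tested genes were 30.1% and 28.9% in Surv-GFP and 18.6% and 19.1% in SurvNESmut-GFP, and nothing is read from these counts. ITPA, which removes deaminated purine nucleotides, rose in Surv-GFP (0.50 ± 0.0534, edgeR adjusted p = 5.7e-07). NME4, a mitochondrial nucleoside diphosphate kinase, fell in Surv-GFP (−0.60 ± 0.0666, edgeR adjusted p = 9.4e-07). Of 6 tested nucleoside transporters, 1 rose and 1 fell in each clone, and SLC29A1, the main equilibrative nucleoside transporter, rose in SurvNESmut-GFP (0.33 ± 0.0653, edgeR adjusted p = 0.00079).

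In the folate cycle that feeds TYMS, 3 of 10 tested genes rose and 4 fell in Surv-GFP, and 2 rose and 3 fell in SurvNESmut-GFP. Among all tested genes, 30.1% rose and 28.9% fell in Surv-GFP, and 18.6% rose and 19.1% fell in SurvNESmut-GFP. SHMT2, the mitochondrial serine hydroxymethyltransferase, rose in both clones (1.46 ± 0.0545 and 1.02 ± 0.0545), and its cytosolic and nuclear counterpart SHMT1 fell in Surv-GFP (−1.07 ± 0.0625, edgeR adjusted p = 3.8e-10). SHMT1 also fell in SurvNESmut-GFP (−0.23 ± 0.0639, edgeR adjusted p = 0.0091), a call that was lost without SurvNESmut-GFP untreated a (−0.17) or SurvNESmut-GFP TMZ a (−0.15).

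De novo synthesis makes the ribonucleotides that ribonucleotide reductase uses. The lists followed for it also hold salvage genes, UCK1 and UCK2 among the pyrimidine genes and HPRT1 and APRT among the purine genes. The counts and medians below include them. UCK2 was among the genes that fell in Surv-GFP (−0.25), and APRT fell in both clones (−0.35 and −0.33). Of 7 tested pyrimidine genes, 3 fell and 1 rose in Surv-GFP (median −0.10), while 0 fell and 3 rose in SurvNESmut-GFP by the edgeR test (median 0.20), and 4 had a higher and 0 a lower TMZ effect in SurvNESmut-GFP. Each count of 0 in this and the purine list was also 0 at an unadjusted p below 0.05. CAD, which catalyses the first steps, fell in Surv-GFP (−0.24 ± 0.0560, edgeR adjusted p = 0.0017) and rose in SurvNESmut-GFP (0.32 ± 0.0543, edgeR adjusted p = 0.00022), a difference of 0.55 ± 0.0780 (edgeR adjusted p = 4e-05). Of 15 tested purine genes, 7 fell and 1 rose in Surv-GFP, 2 fell and 4 rose in SurvNESmut-GFP, and 7 had a higher and 0 a lower TMZ effect there. PAICS fell in Surv-GFP (−0.39 ± 0.0475, edgeR adjusted p = 2.3e-06) and had a log2 fold change of 0.01 ± 0.0473 in SurvNESmut-GFP, and GART rose in SurvNESmut-GFP (0.33 ± 0.0577, edgeR adjusted p = 0.00028).

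Over the 8 libraries, the genes whose log2 CPM followed RRM2 most closely among 6790 well-expressed genes were MMS22L, BRE, ATP5G1, POLA2 and SOAT1, with Pearson correlations of 0.995 to 0.996. RRM2B was followed most closely by ZNF702P (0.999), CD70 (0.997), GYG1 (0.996), MAMDC4 and TRIM3 (both 0.995). These correlations describe 4 groups of 2 libraries that share culture and depth, and carry no test.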

How the data were processed

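The authors' count table gives whole-number read counts per gene symbol, not normalized, as deposited, for 26364 genes. A further 2 rows with no gene name (12.5% to 15.5% of a library's total) were left out. The submitters' processing notes name STAR 2.5.0b, Cufflinks 2.2.1 and edgeR. How reads were counted, the annotation, the genome build and use of strand were not given in the sources used here. Positions and sequences are those of GENCODE 29 (GRCh38) and RefSeq (GRCh38.p14). The authors' own comparison tables (fold changes, F statistics and p-values) were not used. Titles of the 8 libraries gave the 4 groups of 2.

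The analysis of counts used edgeR 4.0.16 in R 4.3.3 (TMM scaling, filter on low counts by group, quasi-likelihood F test as in the edgeR versions of the time) and 1 model with 4 group means. This left 14201 genes, with a common biological coefficient of variation of 4.09%. P-values were adjusted over all tested genes by Benjamini-Hochberg, and calls were made below 0.05. The SE is the log2 fold change divided by the root of F. No set test was run.

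The members and lists were chosen with earlier results of these data known. Other genes named were drawn, per list, TMZ effect and direction, from the up to 3 called genes with the smallest p whose groups did not overlap, with CDKN1A, MDM2, PCNA, MCM2, E2F1, E2F7 and E2F8 named whatever their values, and the 5 genes most correlated with RRM2 or RRM2B (mean log2 CPM of at least 5). Genes such as ENOSF1, TYMSOS and TLDC2 were added as neighbours. TXN and TXNRD1 were added as electron donor genes with no call for TMZ, and are not counted among the other named genes in the repeats. The fit was repeated with size factors of DESeq2, with library size alone, with no filter or 1 CPM in 2 libraries, DESeq2 1.42.0, the edgeR 4 method, the letter as a block, the libraries of 1 comparison alone, and without each library in turn. Some genes of these lists are not reported here by name.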

Additional observations from a re-analysis of the deposited data

Results flagged for a closer look

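For 6 of the 8 genes the difference of the TMZ effects between the clones (SurvNESmut-GFP minus Surv-GFP, log2 scale) was past the threshold that edgeR applied to all tested genes. It was past it as higher for 5 (62.5%, against 16.6% of all tested genes) and as lower for 1 (12.5%, against 20.2%). The genes were chosen with these results known, so the values are a description. The difference was −0.80 for RRM2B, 0.56 for SAMHD1, 0.45 for RRM2, 0.40 for TYMS, 0.24 for RRM1 and 0.21 for TK1. RRM2 and SAMHD1 were lower with TMZ in both Surv-GFP libraries and higher in both SurvNESmut-GFP libraries than in the untreated ones. RRM2B reached similar levels with TMZ (549 ± 25.2 CPM in Surv-GFP and 575 ± 22.3 CPM in SurvNESmut-GFP, SD, n = 2) from different starting levels (114 ± 0.349 and 208 ± 3.58 CPM).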

How the results depend on the processing

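Over 16 alternatives, 632 values of the 40 results on the 8 genes gave 615 on the same side of the threshold and in the same direction, 12 calls lost, 1 gained and 4 reversed. Every change came from leaving out 1 library. The reversed values belonged to results not past the threshold. Without 1 library, RRM1 upon TMZ in Surv-GFP lay between −0.079 and 0.0052 (without Surv-GFP untreated b), TYMS upon TMZ in SurvNESmut-GFP between −0.0076 (without TMZ b) and 0.11, at −0.0053 without untreated a, and RRM2B between the clones with TMZ between −0.0089 (without SurvNESmut-GFP TMZ b) and 0.078. SAMHD1 upon TMZ in SurvNESmut-GFP lay between 0.07 (without SurvNESmut-GFP TMZ a) and 0.22 (without TMZ b), the latter past the threshold. Leaving out 1 library, 3 to 5 of the 8 genes were past the threshold with a higher TMZ effect in SurvNESmut-GFP, against 1798 to 2458 of all tested genes. Before exposure, 0 to 1 were past it as lower there, against 3540 to 4825 of all tested genes. That call, for TYMS, was lost without Surv-GFP untreated b or SurvNESmut-GFP untreated a. The RRM2B to RRM2 change moved between 2.47 and 2.55 in Surv-GFP and between 1.23 and 1.28 in SurvNESmut-GFP. For other named genes, 92 of 2009 values lost a call and 4 reversed (E2F1 upon TMZ in SurvNESmut-GFP, between −0.10 and 0.017 without 1 library, the latter without SurvNESmut-GFP untreated b, and E2F8 between the clones with TMZ, at −0.00061 without a filter, and between −0.085, without Surv-GFP TMZ b, and 0.087, with −0.048 without SurvNESmut-GFP TMZ a). With DESeq2's size factors, 96 of 99 list values kept direction and count within 1.5 times, and the 3 others were the falling electron donors (2), rising transporters (0) and rising purine genes (0) in Surv-GFP. Scaling moved the median of all genes by at most 0.056. Deviations of same-lettered libraries from their group means correlated between −0.0454 and 0.0728. These values cannot tell whether same-lettered libraries share a culture or a run. With the replicate block, 4186 genes were higher and 4017 lower upon TMZ in Surv-GFP (4271 and 4100 without it), and the number of called members changed in no comparison. The 8 genes lost calls only for RRM1 and TK1 (difference of the TMZ effects) and TYMS (both clone differences), and the cause was not tested.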
